A study of Arabidopsis thaliana with 2 samples.

Results

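The genes carried by the chloroplast and mitochondrial genomes were followed in the globular Arabidopsis thaliana embryo. All identifiers beginning with ATC (chloroplast) or ATM (mitochondrial) were taken, an identifier missing from a library being counted as 0, which gave 65 chloroplast and 45 mitochondrial members, 110 of 20029 identifiers listed in either library. The embryo proper, the apical sphere that forms most of the seedling, and the suspensor, the stalk that ties it to the maternal tissue, were each cut by laser from paraffin sections of Ws-0 seeds and gave 1 library each. Both came from plants of 38 to 46 days kept in continuous light at 20 °C, and from seeds whose globular embryo measured 24 to 32 μm across. Sections of an unstated number of seeds were pooled, so a library stands for a region, not for 1 embryo.

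With 1 library per region the data carry no replicate check; no test and no p-value is therefore given, and every difference describes these libraries. Values are RPKM, which scales the reads of a gene by its length in kilobases and by the size of the library. Intervals are 95% exact binomial (Clopper-Pearson) intervals from reads recovered from the RPKM steps and cover counting error only, since copies made by PCR are counted as if they were separate molecules. The embryo proper library held 12715933 reads and the suspensor library 7189150, so 1 read on a gene of 1 kilobase was worth 0.0786 and 0.139 RPKM. The 4 embryo proper markers fixed for the check (WOX2, PHB, AGO10, DRNL) were all higher in the embryo proper, DRNL being unlisted in the suspensor, and the 4 suspensor and basal markers (WOX8, PIN7, SSP, WOX9) were all higher in the suspensor, SSP being unlisted in the embryo proper. The suspensor library also held more RPKM of markers of other seed tissues. The 5 endosperm markers summed to 15.9 RPKM in the embryo proper and to 149 in the suspensor. Of these, 4 were higher in the suspensor, and PHE1 was not, with 0.936 and 0.828 RPKM. The 5 seed coat markers, of which BAN and TT2 were unlisted in the embryo proper, summed to 3.29 and 72.1. The part of these tissues in the results below was not tested, and fewer cells of a type and less RNA per cell cannot be told apart in such samples.

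The chloroplast genome encodes core subunits of both photosystems, the cytochrome b6f complex, the ATP synthase and the NDH complex, the large subunit of Rubisco, part of the plastid ribosome, and the core of a bacterial-type RNA polymerase (PEP). PEP needs nuclear sigma factors and associated proteins and transcribes mainly photosynthesis genes, while a phage-type polymerase encoded in the nucleus transcribes, among others, the genes of PEP itself. The mitochondrial genome encodes a few subunits of the respiratory complexes, of the ATP synthase and of the ribosome, and proteins that mature cytochrome c. In both organelles most proteins of the same complexes come from nuclear genes, and in the reference accession a large copy of the mitochondrial genome lies in chromosome 2.

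The deposited files do not pair organelle identifiers with gene names. RefSeq notes on nuclear genes name 5 of the 65 chloroplast and 6 of the 45 mitochondrial members as the best match of a nuclear protein. A further 29 chloroplast and 11 mitochondrial members were matched by length: the coding length that turns both RPKM values into whole reads was looked up among the RefSeq coding lengths of that genome. When identities were simulated, 95.2% of 207 chloroplast and 94.7% of 57 mitochondrial matches were right, so 1 name in 20 or more may be wrong, and a name below is a match of length unless a note is cited. Where 2 genes have the same coding length both are printed, as in psbA/psbD. The remaining 31 chloroplast and 28 mitochondrial members are given by identifier only.

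The coding sequences behind the contrasts described below are shown from the RefSeq assembly TAIR10.1, not from Ws-0, with the start codon in capitals. The first is the whole psbF gene, the shortest of the abundant chloroplast members, at chrC:63942-64061 on the minus strand. The starts of psbB (chrC:72371-72430, plus strand) and rpoB (chrC:26270-26329, minus strand) stand for members on either side of the comparison, psbB with more in the suspensor. The starts of cox1 (chrM:116286-116345, minus strand) and nad4L (chrM:361637-361696, plus strand) do the same for the mitochondrion. The start of cox3 (chrM:330714-330773, minus strand) is shown because the same 60 bases occur in chromosome 2 at chr2:3312592-3312651.
psbF: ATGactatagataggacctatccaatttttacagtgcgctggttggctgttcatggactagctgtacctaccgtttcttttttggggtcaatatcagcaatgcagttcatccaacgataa
psbB: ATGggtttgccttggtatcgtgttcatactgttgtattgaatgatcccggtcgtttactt
rpoB: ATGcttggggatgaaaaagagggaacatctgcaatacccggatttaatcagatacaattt
cox1: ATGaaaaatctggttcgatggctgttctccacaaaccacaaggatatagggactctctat
nad4L: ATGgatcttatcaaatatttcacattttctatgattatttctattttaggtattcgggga
cox3: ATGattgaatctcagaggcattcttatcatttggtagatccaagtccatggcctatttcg

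Chloroplast members held a small share of both libraries, and the part of library preparation in this was not tested. The 65 members summed to 108 RPKM in the embryo proper, 0.00801% of the RPKM of the library, and to 151 in the suspensor, 0.0107%. The median member had 0.968 RPKM in the embryo proper against 1.15 in the suspensor, and the highest values were 18.2 and 22.0. The embryo proper library listed 56 members and the suspensor library 61, with 52 in both. The 4 members listed in the embryo proper alone reached at most 1.279 RPKM and the 9 in the suspensor alone at most 2.44, levels at which a short gene rests on a few reads.

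**Figure D1:**
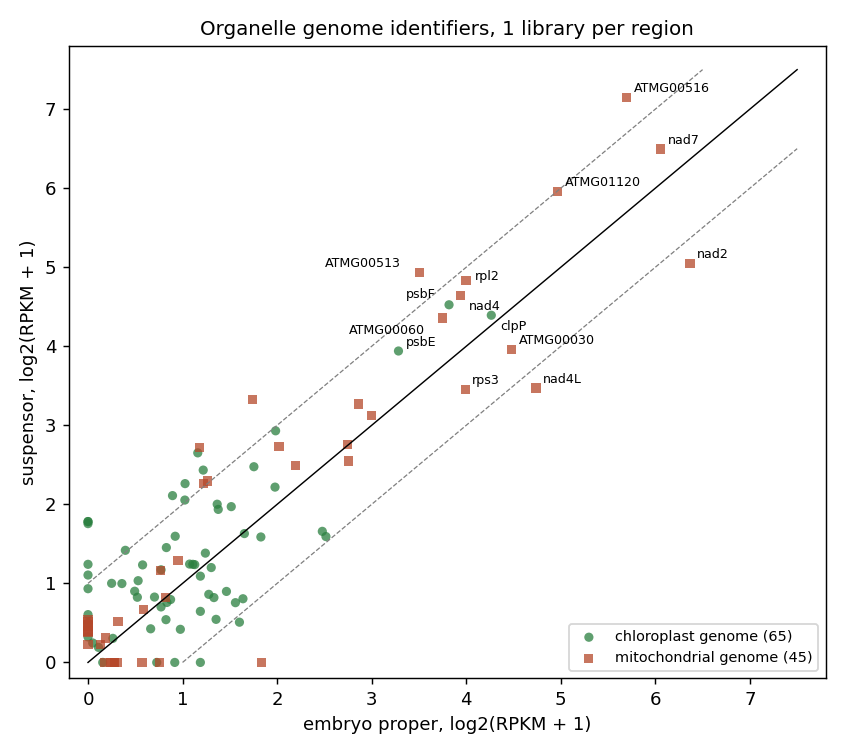
Levels of the 65 chloroplast (circles) and 45 mitochondrial (squares) identifiers in the embryo proper (horizontal axis) and the suspensor (vertical axis), as log2(RPKM + 1), 1 library per region; the solid line marks equal levels and the dashed lines a 2-fold difference. Chloroplast members stay at or below 22.0 RPKM, and the highest mitochondrial identifier reaches 141 RPKM in the suspensor.

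Of the 65 chloroplast members, 45 reached 1 RPKM in at least 1 library. On the log2(RPKM + 1) scale 11 of these, 24.4%, exceeded 2-fold towards the suspensor, where 29.3% of all 16975 genes at that level did, and 2, or 4.44%, exceeded it towards the embryo proper, where 23.1% of all genes did. None differed 4-fold on that scale, which understates the difference of low genes. The median of the members' log2 ratios, suspensor over embryo proper, was 0.46, beside 0.13 over all genes. The count in the suspensor direction was thus near the background, and the direction of single groups of genes, taken next, is where the members parted.

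Photosynthesis genes were higher in the suspensor library. Of 15 members matched to subunits of the photosystems, the cytochrome b6f complex, the ATP synthase or Rubisco, 13 were higher in the suspensor and the other 2 were not. Their reads, 310 from the embryo proper library and 393 from the suspensor library, gave a fold of 2.24 (1.93 to 2.61) after scaling to the library totals, and 2.05 relative to the median of nuclear genes, which itself lay 0.13 higher in the suspensor on the log2 scale. Without psbB, the member with most suspensor reads in this group, the fold was 2.07 (1.76 to 2.43). Of the 14 members of the group that reached 1 RPKM, 12 were higher in the suspensor, beside 8991 of 16906 nuclear genes. On the log2(RPKM + 1) scale 5 of the 14, 35.7%, passed 2-fold towards the suspensor, not far from the 29.3% of all genes. None passed it towards the embryo proper, where 23.1% of all genes did. Low genes rarely pass on this scale, and the median of the 15 members in the embryo proper was 1.33 RPKM, beside 7.18 over nuclear genes. The lack of members passing towards the embryo proper therefore cannot be read as a difference from all genes.

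Photosystem II, which splits water and passes its electrons to plastoquinone, gave a pooled fold of 2.46 (1.96 to 3.08) over 6 members. psbB, which encodes the inner antenna protein CP47, stood at 1.236 RPKM in the embryo proper (24 reads) and 5.283 in the suspensor (58 reads), a fold of 4.27 (2.61 to 7.19). psbC, for the inner antenna protein CP43, stood at 1.327 and 4.402 RPKM, a fold of 3.32 (1.98 to 5.69). The identifiers ATCG00020 and ATCG00270 were matched to the equal lengths of psbA and psbD, the genes of the D1 and D2 proteins of the reaction centre, and differed from each other. ATCG00020 stood at 1.037 and 3.798 RPKM, a fold of 3.66 (1.87 to 7.5), and ATCG00270 at 2.147 and 2.096 RPKM, a fold of 0.976 (0.495 to 1.86). One of the pair was thus higher in the suspensor and the other was level in both libraries.

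The most abundant photosystem II members were the short genes psbF and psbE, which encode both chains of cytochrome b559 and are transcribed together. psbF had 13.107 RPKM in the embryo proper against 22.024 in the suspensor, from only 20 and 19 reads. psbE stood at 8.738 and 14.351 RPKM, from 28 and 26 reads. Their folds, 1.68 (0.848 to 3.32) and 1.64 (0.925 to 2.91), were close to each other, and both intervals held 1.

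Photosystem I, which reduces ferredoxin, gave a pooled fold of 2.02 (1.42 to 2.88) over psaB and psaA, neighbouring genes that encode its core proteins and share a transcript. psaB had 1.034 RPKM in the embryo proper against 3.154 in the suspensor, a fold of 3.05 (1.89 to 5.00). psaA stood at 1.187 and 1.358 RPKM, a fold of 1.14 (0.638 to 2.01), so the higher level in the suspensor was carried by psaB.

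The ATP synthase members gave a pooled fold of 2.05 (1.51 to 2.80). atpE and atpB, for the epsilon and beta subunits of its catalytic part, are transcribed together: atpE had 2.956 RPKM in the embryo proper against 6.624 in the suspensor, a fold of 2.24 (1.08 to 4.74). atpB, much lower, stood at 0.315 and 1.673 RPKM, from 6 and 18 reads, a fold of 5.31 (2.02 to 16.3). atpA, for the alpha subunit, stood at 2.374 and 4.564 RPKM, a fold of 1.92 (1.26 to 2.93). atpI, for a membrane subunit, went against these with 1.468 and 1.298 RPKM, a fold of 0.884 (0.302 to 2.34) whose interval held 1.

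The cytochrome b6f complex, which links the photosystems, rested on few reads: petB had 1.578 RPKM in the embryo proper against 3.005 in the suspensor, and petA at 0.408 and 0.867, with a pooled fold of 1.97 (0.987 to 3.94). rbcL, for the large subunit of the carbon-fixing enzyme Rubisco, stood at 0.492 and 1.352 RPKM, from 9 and 14 reads, a fold of 2.75 (1.11 to 7.21). The NDH complex, which cycles electrons around photosystem I, was represented by ndhI with 1.364 and 1.608 RPKM, ndhA with 0.436 and 0.771, and ndhK, named by a RefSeq note and unlisted in the embryo proper, with 0.41 in the suspensor. Their pooled fold of 1.65 (0.738 to 3.67) gave no difference detectable at this depth.

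**Figure D2:**
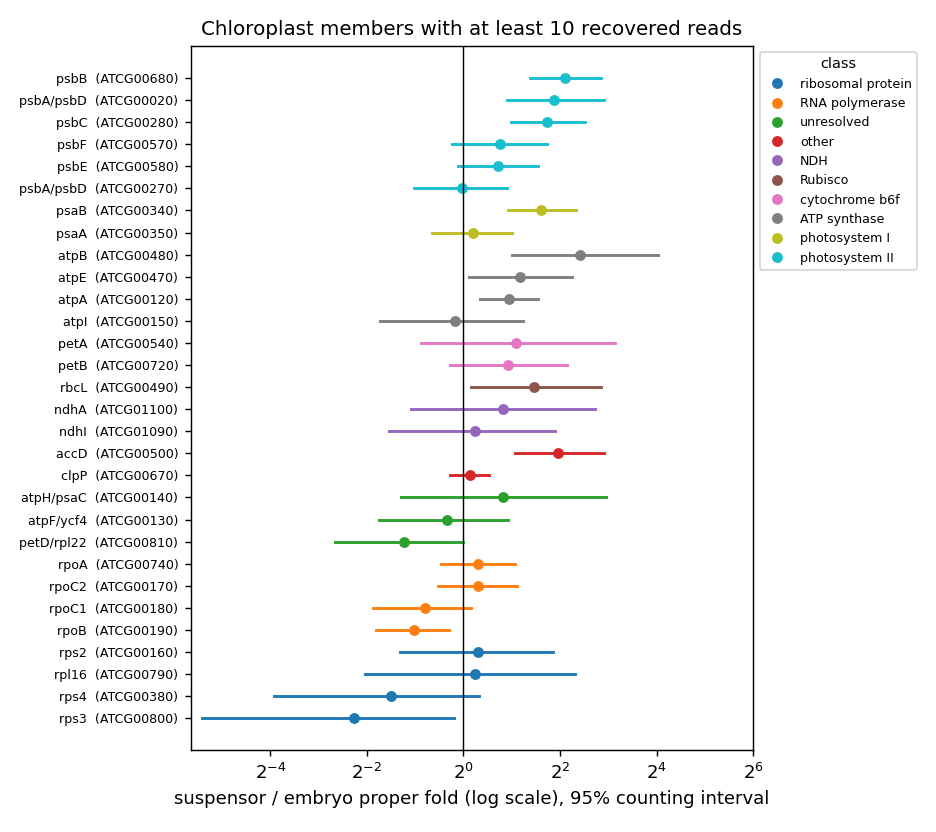
Fold of suspensor over embryo proper (log axis) for the 30 chloroplast members with at least 10 recovered reads, with 95% exact binomial counting intervals and colours by class; names join 2 genes of equal coding length. Photosystem II members lie at 0.976 to 4.27, whereas rpoB and rps3 have intervals below 1.

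Genes of the plastid's own transcription and translation did not share this direction. The 10 members matched or noted as PEP subunits or ribosomal proteins held 232 embryo proper reads and 100 suspensor reads, a fold of 1.31 (1.03 to 1.68) towards the embryo proper and 1.44 relative to the nuclear median. As a fold of suspensor over embryo proper this is 0.762 (0.597 to 0.968), and the interval does not overlap that of the photosynthesis members. The group rested on rpoB: without it the fold towards the embryo proper was 1.13 (0.859 to 1.5), whose interval held 1, and the median log2 ratio of its members of at least 1 RPKM went from -0.14 to 0.13, on the suspensor side.

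The 4 PEP subunits were split. rpoB, for the beta subunit, stood at 1.759 RPKM in the embryo proper (72 reads) and 0.864 in the suspensor (20 reads), 2.04-fold (1.23 to 3.53) higher in the embryo proper. rpoC1, its neighbour in the same operon, stood at 1.424 and 0.817 RPKM, 1.74-fold (0.889 to 3.67) higher in the embryo proper. rpoC2, the third gene of that operon, and rpoA, which lies elsewhere, had point values on the other side. rpoC2 stood at 0.628 and 0.774 RPKM, a fold of 1.23 (0.691 to 2.16) towards the suspensor. rpoA stood at 2.939 and 3.653 RPKM, a fold of 1.24 (0.723 to 2.11). Taken as one class the 4 subunits were 1.25-fold (0.956 to 1.65) higher in the embryo proper, an interval that held 1.

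Among 6 ribosomal protein members the pooled fold towards the embryo proper was 1.58 (0.918 to 2.82). rps3, a protein of the small subunit, had 2.035 RPKM in the embryo proper against 0.423 in the suspensor, from 17 and 2 reads, 4.81-fold (1.14 to 42.9) higher in the embryo proper. rps4, also of the small subunit, stood at 1.947 and 0.689 RPKM, from 15 and 3 reads, with an interval of 0.800 to 15.2. rps2 with 1.106 and 1.369 RPKM and rpl16 with 1.156 and 1.364 RPKM were slightly higher in the suspensor, within counting error. By note, rpl20 was listed in the embryo proper alone with 0.889 RPKM (4 reads), which allows no direction.

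The most abundant chloroplast member was clpP, named by note, which encodes the proteolytic subunit of the Clp protease and is required for plastid development. It had 18.23 RPKM in the embryo proper against 20.006 in the suspensor, from 137 and 85 reads, a fold of 1.10 (0.827 to 1.45), and so was level within counting error. accD, for a subunit of the acetyl-CoA carboxylase that starts fatty acid synthesis, stood at 0.858 and 3.319 RPKM, from 16 and 35 reads, 3.87-fold (2.09 to 7.49) higher in the suspensor. In Arabidopsis accD is known, as rpoB is, as a gene of the nuclear-encoded polymerase. The fold of accD lay among the photosystem values and not beside that of rpoB, and which polymerase made these transcripts was not tested. cemA, an envelope protein named by note, was listed in the embryo proper alone with 0.114 RPKM, 1 read.

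The lengths of 3 members matched 2 genes from different classes and were left out of the classes. ATCG00810, petD or rpl22, had 4.722 RPKM in the embryo proper against 2.016 in the suspensor, 2.34-fold (1.00 to 6.33) higher in the embryo proper. ATCG00130, atpF or ycf4, stood at 2.551 and 2.005 RPKM, and ATCG00140, atpH or psaC, at 1.598 and 2.827, both within counting error. Among the 31 members without a name, 17 reached 1 RPKM, 5 of them past 2-fold towards the suspensor, 29.4% beside 29.3% of all genes, and 1 towards the embryo proper, 5.88% beside 23.1%. The most abundant, ATCG01230, had 4.572 RPKM in the embryo proper against 2.157 in the suspensor. Over all 34 members with recovered reads, 9 intervals lay above 1, 3 below 1 and 22 held 1. No such intervals were counted for nuclear genes, so these counts have no background beside them.

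The nuclear partners of these genes were read from lists of fixed loci. The 12 PEP-associated proteins, which bind the core polymerase and are needed for its activity, were all higher in the embryo proper, 7 of them at least 2-fold, 58.3% beside 23.1% of all genes, with a median log2 ratio of -1.10 beside 0.13 over all genes. HMR had 128.14 RPKM in the embryo proper against 19.671 in the suspensor, 6.51-fold higher in the embryo proper. TRX z, a plastid thioredoxin, stood at 56.417 and 9.828 RPKM, and PTAC6 at 114.576 and 34.528. PTAC3 stood at 26.904 and 6.362 RPKM. PTAC7, MURE and PTAC2 were close to level, with 31.919 and 27.547, 16.583 and 13.496, and 12.423 and 10.262 RPKM.

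The polymerases and sigma factors were mixed. The 3 phage-type polymerases all exceeded 2-fold towards the embryo proper: SCA3, the plastid enzyme, stood at 17.485 RPKM there and at 3.638 in the suspensor. MGP3, the mitochondrial enzyme, stood at 14.679 and 4.900, and AT5G15700, of the same superfamily, at 13.032 and 5.377. Of the sigma factors, which give PEP its promoter choice, SIG6 stood at 29.802 and 9.476 RPKM, 3.14-fold higher in the embryo proper. SIG1 stood at 8.807 and 18.712, 2.12-fold higher in the suspensor, and SIG5 at 3.087 and 4.744. SIG2 was close to level with 26.626 and 23.466 RPKM, and SIG4 was unlisted in both libraries.

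**Figure D3:**
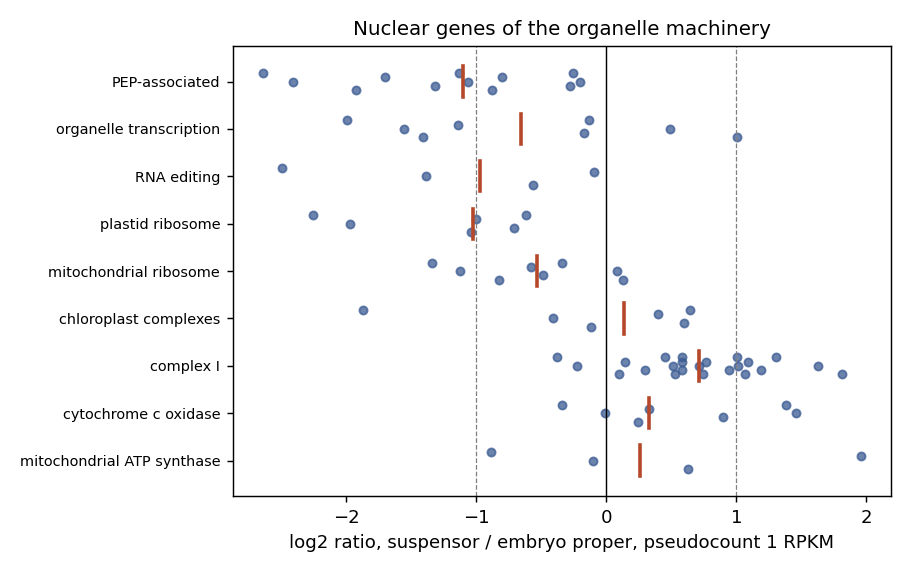
log2 ratio of suspensor over embryo proper (pseudocount 1 RPKM) for nuclear genes of the organelle machinery that reached 1 RPKM in at least 1 library, 1 point per gene; bars are medians and dashed lines mark a 2-fold difference. All 12 PEP-associated genes lie left of 0, and 21 of the 23 complex I genes lie right of 0.

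The 6 nuclear genes annotated as plastid ribosomal proteins were all higher in the embryo proper, 4 of them at least 2-fold, 66.7% beside 23.1% of all genes, with a median log2 ratio of -1.02. PSRP5 stood at 352.392 RPKM there and 72.817 in the suspensor, and RPL3P at 100.742 and 24.966. The 4 editing factors listed were also all higher in the embryo proper, 2 of them at least 2-fold, 50.0% beside 23.1% of all genes: MORF8, which takes part in C-to-U editing in both organelles, stood at 460.266 and 80.907 RPKM, and MORF1, a mitochondrial editing factor, at 38.197 and 14.020. MORF9 was nearly level with 28.689 and 26.865 RPKM. The nuclear subunits of the chloroplast complexes did not follow. RBCS1A, the small subunit of Rubisco, had 302.546 RPKM in the embryo proper against 473.909 in the suspensor, and PSBO1, of the water-splitting complex, at 289.612 and 381.372. ATPD, the delta subunit of the ATP synthase, stood at 112.664 and 29.990 RPKM, 3.76-fold higher in the embryo proper, opposite to atpA, atpB and atpE of the same enzyme.

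Mitochondrial identifiers held more RPKM in both libraries than chloroplast ones, and their values were more unequal. The 45 members summed to 388 RPKM in the embryo proper, 0.0289% of the RPKM of the library, and to 526 in the suspensor, 0.0374%. The 4 most abundant identifiers held 58.8% and 61.5% of these sums, while the median member stood at 0.935 and 1.24 RPKM. The embryo proper library listed 37 members and the suspensor library 36, with 28 in both.

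Of 24 mitochondrial members that reached 1 RPKM, 6 exceeded 2-fold towards the suspensor, 25.0% beside 29.3% of all genes, and 3 towards the embryo proper, 12.5% beside 23.1%. None differed 4-fold on the log2(RPKM + 1) scale, and the median log2 ratio was 0.42 beside 0.13 over all genes. As with the chloroplast, the count towards the suspensor was near the background. Over the 15 members with recovered reads, 2094 embryo proper reads and 1629 suspensor reads, the pooled fold was 1.38 (1.29 to 1.47) towards the suspensor. A single member, nad7, gave 989 and 760 of these reads. Abundant members without recovered reads are left out of the pool, and they went both ways. Among them, ATMG01320 had 81.542 RPKM in the embryo proper against 32.134 in the suspensor, and ATMG00516 had 50.697 against 140.848. The pooled fold therefore describes the 15 members, not the genome. Of the intervals of these 15 members, 7 lay above 1, 2 below 1 and 6 held 1, again with no background from nuclear genes.

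Complex I, the NADH dehydrogenase that feeds electrons into the respiratory chain, held the most abundant named members and went both ways. nad7 had 65.634 RPKM in the embryo proper against 89.211 in the suspensor, from 989 and 760 reads, a fold of 1.36 (1.23 to 1.5). nad4 stood at 14.323 and 23.931 RPKM, a fold of 1.67 (1.40 to 1.99). nad6 stood at 3.054 and 5.627 RPKM, a fold of 1.84 (1.01 to 3.37). These were modestly higher in the suspensor, whereas nad4L and nad2 were higher in the embryo proper by more. nad4L had 25.695 RPKM in the embryo proper against 10.1 in the suspensor, from 99 and 22 reads, 2.54-fold (1.59 to 4.24) higher in the embryo proper. ATMG01320, whose note reads NADH dehydrogenase 2B and which is called nad2 here, stood at 81.542 and 32.134 RPKM, also 2.54-fold. No reads were recovered for ATMG01320 because its values were not whole at the RefSeq length of nad2. Whether this identifier covers the whole gene or a part of it was not tested. nad9, with 3.568 and 4.612 RPKM, was level within counting error, so subunits of a single complex differed in direction.

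Complex IV, the cytochrome c oxidase that ends the respiratory chain, lay on the suspensor side, 3.59-fold (2.63 to 4.95) higher there over 3 members. cox1, for the catalytic subunit, stood at 2.333 RPKM in the embryo proper (47 reads) and 9.045 in the suspensor (103 reads), a fold of 3.88 (2.72 to 5.60). cox2, for the subunit that takes electrons from cytochrome c, stood at 1.406 and 3.908 RPKM, a fold of 2.78 (1.36 to 5.87). cox3, named by note, had 1 read in each library, and its values of 0.099 and 0.174 RPKM add nothing to the pooled fold.

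The proteins that mature cytochrome c, the electron carrier of that oxidase, lay on the same side. ccmB had 1.266 RPKM in the embryo proper against 5.600 in the suspensor, from 10 and 25 reads, a fold of 4.42 (2.05 to 10.3). ccmFC, named by note, stood at 1.331 and 3.787 RPKM. atp4, for a subunit of the mitochondrial ATP synthase, stood at 6.248 and 8.649 RPKM, a fold of 1.38 (0.869 to 2.19), within counting error, and atp6, named by note, had 0.136 and 0.240 RPKM, 2 reads in each library.

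The ribosomal protein members were split, with a pooled fold of 1.12 (0.981 to 1.28). rpl2, named by note, had 14.979 RPKM in the embryo proper against 27.555 in the suspensor, from 200 and 208 reads, a fold of 1.84 (1.51 to 2.24). rps3 stood at 14.872 and 9.989 RPKM, from 316 and 120 reads, 1.49-fold (1.2 to 1.85) higher in the embryo proper. rpl16 was level with 6.990 and 7.728 RPKM. The chloroplast and the mitochondrial rps3, which encode the ribosomal protein of the same name in each organelle, were thus both higher in the embryo proper library.

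**Figure D4:**
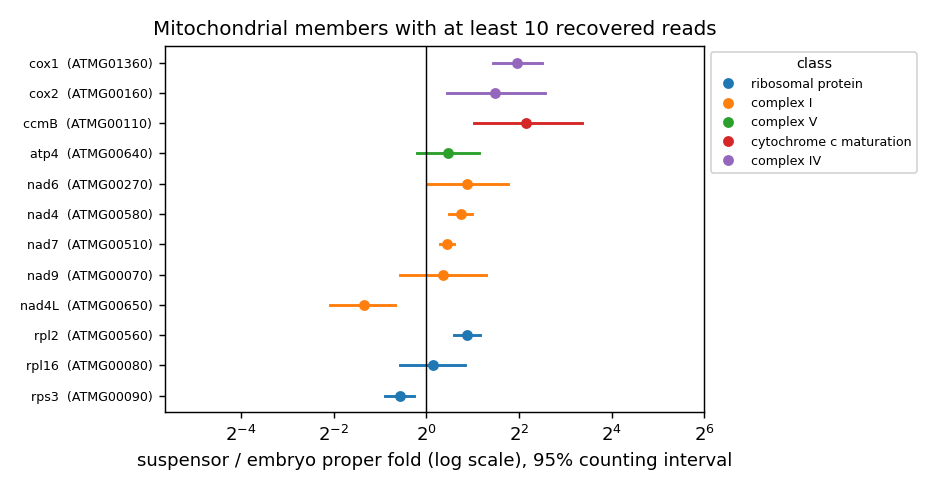
Fold of suspensor over embryo proper (log axis) for the 12 mitochondrial members with at least 10 recovered reads, with 95% exact binomial counting intervals and colours by class. cox1, cox2 and ccmB lie at 2.78 to 4.42, and nad4L and rps3 lie below 1.

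Several of the most abundant mitochondrial identifiers carry no name here. ATMG00516 was the highest of all members, with 50.697 RPKM in the embryo proper against 140.848 in the suspensor. ATMG01120 stood at 30.247 and 61.142 RPKM, ATMG00513 at 10.333 and 29.532, and ATMG00060 at 12.478 and 19.505. These 4 were higher in the suspensor, and ATMG00030, with 21.359 and 14.597 RPKM, was higher in the embryo proper. ATMG01370, named after its values were seen, was the highest mitochondrial member listed in 1 library alone, with 2.575 RPKM in the embryo proper.

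Some mitochondrial genes were missing or near 0 under their own identifier while a nuclear identifier of the same gene had values. RefSeq notes tie 53 mitochondrial identifiers to a nuclear gene, and 13 of these were listed, with 3 at 1 RPKM or more (nad2, rpl2 and ccmFC); of the 32 listed members that no note ties to a nuclear gene, 21 reached 1 RPKM. The unlisted mitochondrial identifiers were tied to 42 nuclear genes, of which only 22 were listed and 13 reached 1 RPKM. The pairs that follow are examples with higher nuclear values. ATMG01190, noted as atp1 of the ATP synthase, was unlisted, while AT2G07698 in chromosome 2 had 53.978 RPKM in the embryo proper against 66.51 in the suspensor. ATMG00220, noted as the cytochrome b of complex III, was unlisted, while AT2G07727 stood at 15.436 and 40.953 RPKM. cox3, whose first 60 bases are the same in both places, stood at 0.099 and 0.174 RPKM under ATMG00730 and at 8.869 and 16.559 under AT2G07687. rpl5 was unlisted as ATMG00210 and stood at 13.107 and 24.679 RPKM as AT2G07725. For these genes the values under the mitochondrial identifier alone leave out most of what was listed for the sequence.

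**Figure D5:**
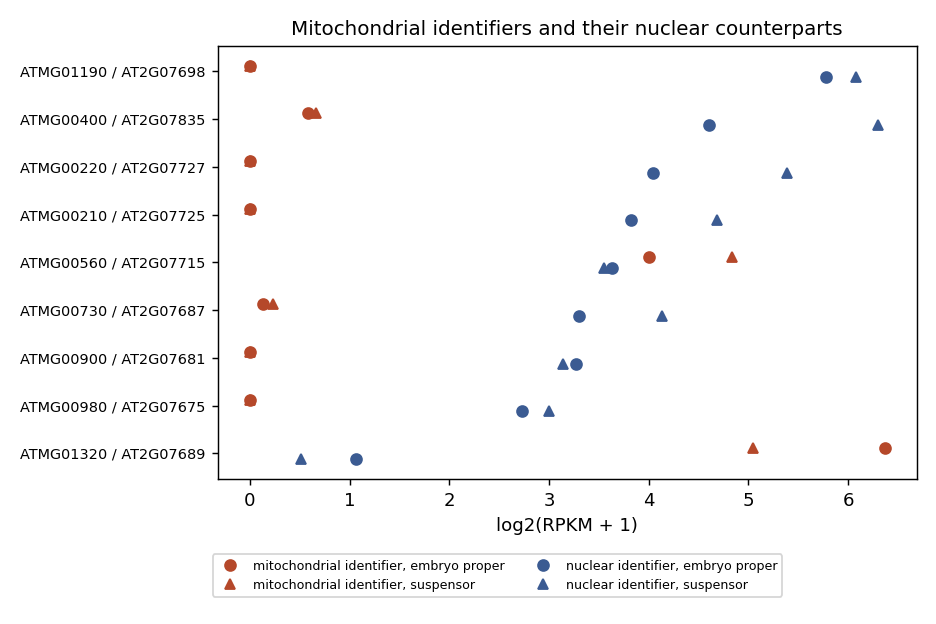
Levels, as log2(RPKM + 1), of the 9 pairs of a mitochondrial identifier (red) and the nuclear identifier that RefSeq notes tie to it (blue) with at least 5 RPKM in either place, in the embryo proper (circles) and the suspensor (triangles). In 7 of the 9 pairs the mitochondrial identifier stays below 1 RPKM, and in the pairs of nad2 (ATMG01320) and rpl2 (ATMG00560) it is the higher one.

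The sequence of the reference shows how alike these places are. Of 32 RefSeq mitochondrial coding genes, 22 had under 10% of their 50-base windows unique in the genome, 16 had none, and in 5, atp4, ccmB, cox1, nad4L and nad9, all windows were unique. Of 78 chloroplast coding genes, 59 had only unique windows and 5 (ndhB, rpl2, rpl23, rps7 and ycf2) had none. The genes cox1, nad4L and ccmB are among the larger contrasts above. If the length matches are right, their values rest on sequence whose 50-base windows have no second copy in the reference. This does not hold for other contrasts above: nad2 and ccmFC, named by note, had no unique window, and the mitochondrial rpl2 had 10.6%. Genes with few or no unique windows were not always low: nad4 and nad6 had no unique window and nad7 5.32%. They kept 271 and 256, 24 and 25, and 989 and 760 reads. How the authors treated reads with several matches is not stated in what was used here, and from which copy such reads came was not tested.

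The nuclear genes of the respiratory complexes differed modestly between the libraries. Of 25 genes annotated as complex I subunits or assembly proteins, 23 reached 1 RPKM; 21 were higher in the suspensor, 8 of them at least 2-fold, and 2 in the embryo proper, none 2-fold, with a median log2 ratio of 0.71 beside 0.13 over all genes. The 8 are 34.8% of the 23, not far from the 29.3% of all genes. AT1G76200, a beta subcomplex subunit, had 1257.143 RPKM in the embryo proper against 3108.523 in the suspensor, and AT3G62790, annotated as NADH-ubiquinone oxidoreductase-like, at 171.951 and 533.211. AT4G16450 stood at 1294.525 and 1864.181 RPKM. nad7, nad4 and nad6 lay in the direction of these nuclear partners, and nad4L and nad2 opposite to them.

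Of 13 nuclear genes annotated for cytochrome c oxidase subunits, 7 reached 1 RPKM, 5 of them higher in the suspensor, 2 at least 2-fold, with a median log2 ratio of 0.33. These 2 are 28.6%, near the 29.3% of all genes. AT5G61310, a subunit Vc gene and the most abundant, had 995.724 RPKM in the embryo proper against 2744.879 in the suspensor, and AT5G57815, a subunit VIb gene, at 82.624 and 216.571. The 4 genes annotated for the mitochondrial ATP synthase went both ways, from AT2G19680 with 24.722 and 98.764 RPKM to AT4G26210 with 158.775 and 85.193. Of 9 nuclear genes annotated as mitochondrial ribosomal proteins, 8 reached 1 RPKM, 6 of them higher in the embryo proper, 2 at least 2-fold, with a median log2 ratio of -0.53. These 2 are 25.0%, near the 23.1% of all genes. MRPL11 had 216.265 RPKM in the embryo proper against 84.707 in the suspensor.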

How the data were processed

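RNA of laser-captured embryo proper and suspensor was measured by RNA-seq, 1 library each, grouped by the tissue in the labels; 15 ng of total RNA was amplified and libraries were enriched by 15 cycles of PCR, per the labels' protocols. The authors deposited RPKM with 3 decimals, per the file headers, and list a gene only above 0. HISAT2 2.0.6, HTSeq 0.6.1 and TAIR10 are named in the submitters' processing notes without roles; no source used here gives the treatment of strand or of reads with several matches.

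Reads were recovered by searching for the total at which low values become whole: in genes with 1 coding length, counting those with 0.2 RPKM or more and no more than 15 reads, 96.9% of 1498 values (embryo proper) and 97.0% of 2418 (suspensor) were within 0.05 of a whole read. The deposited RPKM are not counts, so no count test was run. Members were matched to RefSeq (TAIR10.1) coding lengths up to 5000 bases when listed in both libraries with at least 10 reads in total and unique by length; of a length and its multiple the shorter was kept. Notes gave symbols by their product text, read by hand; at the RefSeq length of that symbol the values were whole for 5 of 5 chloroplast and 4 of 6 mitochondrial members. The match took its final form only once the values were known, and rules that gave matches against known gene positions were discarded, so the simulated share of right matches (5 simulations with added decoy lengths) is optimistic. The nad2 and ccmFC members and those without a name have no recovered reads.

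The main measure was log2((suspensor + 1)/(embryo proper + 1)) in RPKM for genes of at least 1 RPKM in at least 1 library; folds with intervals are ratios without the pseudocount. Named members are the 12 most abundant of each genome, those of at least 10 RPKM with the largest differences and the 2 most abundant of each class; atpB, atpI, rpoC1, rpoC2, rps2, rpl16, SIG5, MORF9, PTAC2, PTAC7, MURE, nad6, nad9, cemA, rpl20, cox3 and the members named for a lone listing were added after their values were seen. Of each nuclear list, the most abundant genes and those with the largest differences were named, not all of them printed. MORF2 was left out because no reference row carries its locus; 4 loci are called by their reference entry (MGP3, SCA3, AT5G15700, TRX z). LHCA4 was removed from the complex I list after its values were seen, because its product wording, not its complex, had matched. The members and lists were chosen with earlier results of these data known. Python 3.11.15, numpy 2.4.6, scipy 1.17.1 and matplotlib 3.10.9 were used.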

Additional observations from a re-analysis of the deposited data

How the results depend on the processing

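No paired analysis was possible because each region has 1 library. Neither genome's median or sum ratio, nor the 2 pooled folds, changed direction under the alternatives run, but the median log2 ratio of the chloroplast gene expression members turned from -0.14 to 0.13 without rpoB, and counts at such low levels moved. The chloroplast median log2 ratio of 0.46 became 0.71 with a pseudocount of 0.1 RPKM, 0.15 with 5 RPKM, 0.20 with no filter, 0.66 over the 3 genes of at least 10 RPKM and 0.24 over genes listed in both libraries. The 11 chloroplast genes at least 2-fold higher in the suspensor became 17, 0, 0 and 6 with a pseudocount of 0.1, of 5, a filter of 10 RPKM and listing in both, and 0 at 4-fold; the 2 higher in the embryo proper became 8, 0, 0, 1 and 0. The mitochondrial median of 0.42 became 0.61 with a pseudocount of 0.1 RPKM, 0.30 with no filter, 0.61 at 10 RPKM and 0.30 when scaled to a nuclear median of 0. The 6 mitochondrial genes higher in the suspensor became 2 with a pseudocount of 5 RPKM, 2 at 10 RPKM and 0 at 4-fold, and the 3 higher in the embryo proper 0 at 4-fold. The log2 ratio of the mitochondrial sum, 0.44, was 0.29 when scaled to the nuclear median. Without the 4 most abundant, an alternative chosen after seeing the data, it was 0.34. This ratio was 0.74 when members tied by note to a nuclear gene and named members with under 90% unique windows were left out. The 90% limit was set after seeing the data. Members with neither a name nor a note, among them ATMG00516, ATMG01120 and ATMG00513, stayed in, and their windows were not tested. A pseudocount or threshold acts by its construction on low genes; the cause of the other moves was not tested. The alternatives without psbB and without rpoB were also chosen after seeing the data. Of 63 alternative values, 37 stayed within 1.5 times a count or within the counting interval. Depth limits single genes: 22 of 34 chloroplast and 6 of 15 mitochondrial intervals held 1.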
